A study of Mus musculus with 15 samples.

Results

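Of the 52636 Ensembl gene identifiers in the count table, 9 were followed here: the Krüppel-like factor (Klf) genes Klf2, Klf3, Klf4, Klf5, Klf6, Klf9, Klf10, Klf13 and Klf16. Each was found by its Ensembl identifier, and each had 1 row. All 9 passed the filter on low counts that left 13451 genes for testing. The 15 RNA-seq libraries were made from mouse EpiLCs, or epiblast-like cells, which are embryonic stem cells taken for 48 h towards the state of the early post-implantation epiblast. The cells belonged to the line CRAFR26, which carries a c-RAF kinase construct that 4-hydroxytamoxifen (4OHT) switches on, so that ERK, the last kinase of the RAF-MEK-ERK cascade, can be induced. Every group, the controls included, was grown in N2B27 with 12 ng/ml bFGF, 20 ng/ml Activin A and 1 µM of the tankyrase inhibitor XAV939, and was kept for 2 h in 250 nM of the FGF receptor inhibitor PD17 before the experiment. The group 0h received no 4OHT (3 samples), the groups 2h and 4h received 250 nM 4OHT for 2 h and 4 h (4 samples each), and the group rev received a MEK inhibitor for 2 h more after the 4 h of 4OHT (4 samples). Both clones studied, named 4 and 8, gave 2 samples to each group except 0h, where clone 4 has 1 sample because the authors discarded the other in quality control. The question was how the genes commonly counted as immediate early, Klf6 and Klf10, move beside the pluripotency genes Klf2, Klf4 and Klf5 over these groups in each clone.

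A change from 4h to rev cannot be told apart from a change over 2 more hours of culture. Changes at 2h and 4h likewise cannot be told apart from added hours of culture, because no untreated group was kept for matching times. Nor can the effect of the induced kinase be told apart from other effects of 4OHT, because no group without the construct was compared. The design counts samples of 1 clone as replicates and names the clones as the biological units, so the p-values below measure the spread between these samples. In bulk RNA, fewer cells with a transcript and less transcript in each cell cannot be told apart.

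Klf proteins bind GC-rich and CACCC-type sequences through 3 zinc fingers at their carboxyl end, and differ mainly in the part before the fingers, which recruits activators or repressors. In mouse embryonic stem cells Klf2, Klf4 and Klf5 act with Nanog, Esrrb and Tfcp2l1 to hold the naive state, and their RNA is known to fall as cells move to the epiblast-like state. Klf6 and Klf10 are classed with the rapid transcriptional responses to growth factors and to TGF-beta. Klf3 recruits the corepressor CtBP, Klf9, Klf10, Klf13 and Klf16 recruit the corepressor Sin3a, and Klf9 is also a glucocorticoid-responsive gene.

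Upstream sequence is shown for 4 members. They are Klf6 of the immediate early class, Klf2 and Klf4 of the pluripotency class, whose courses differ from each other below, and Klf9 of the slow risers. The sequences come from the RefSeq promoter table of build GRCm38.p6, which holds 6 of the 9 members (Klf2, Klf3, Klf4, Klf6, Klf9 and Klf13). Each runs 5′ to 3′ on the strand of the gene through the 250 bases before the RefSeq start, and as printed leaves out any base that GENCODE M21 places inside the gene. Klf6 is read at chr13:5861239-5861481 (plus strand), Klf2 at chr8:72318812-72319032 (plus strand), Klf4 at chr4:55532476-55532725 (minus strand) and Klf9 at chr19:23140976-23141225 (plus strand). Capitals mark matches, on either strand, to the Klf motif CACCC, to TGACG, the core of the cAMP response element, and to the AP-1 motif TGANTCA.
Klf6: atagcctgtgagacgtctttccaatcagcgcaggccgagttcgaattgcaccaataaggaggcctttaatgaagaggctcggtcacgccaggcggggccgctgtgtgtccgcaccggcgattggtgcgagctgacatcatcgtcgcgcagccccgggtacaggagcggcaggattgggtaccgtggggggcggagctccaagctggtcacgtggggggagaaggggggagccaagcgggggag
Klf2: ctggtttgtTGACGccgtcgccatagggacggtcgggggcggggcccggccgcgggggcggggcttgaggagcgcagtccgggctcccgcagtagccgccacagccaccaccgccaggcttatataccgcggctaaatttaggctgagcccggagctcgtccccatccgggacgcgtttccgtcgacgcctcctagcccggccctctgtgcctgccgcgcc
Klf4: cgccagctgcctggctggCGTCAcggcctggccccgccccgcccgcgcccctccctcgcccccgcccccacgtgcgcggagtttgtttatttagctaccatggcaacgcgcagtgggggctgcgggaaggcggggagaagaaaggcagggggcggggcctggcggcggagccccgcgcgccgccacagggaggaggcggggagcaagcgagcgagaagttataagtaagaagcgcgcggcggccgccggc
Klf9: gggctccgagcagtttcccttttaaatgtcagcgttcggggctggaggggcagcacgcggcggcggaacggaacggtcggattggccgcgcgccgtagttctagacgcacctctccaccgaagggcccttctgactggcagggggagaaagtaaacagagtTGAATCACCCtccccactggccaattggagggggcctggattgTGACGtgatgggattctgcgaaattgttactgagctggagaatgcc

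Matches were counted in the full 250 bases, before any base was left out for printing. The Klf6 window holds no match to any of these 3 motifs. The Klf2 window opens with a match to TGACG that begins 241 bases before the RefSeq start, and has a CACCC at 19 bases on the opposite strand, among the 29 bases not printed. The Klf4 window has its match to TGACG on the opposite strand, 232 bases before the start. The Klf9 window holds a match to TGANTCA at 89 bases, a CACCC at 84 bases that shares bases with it, and a TGACG at 46 bases. Over all 32841 promoters of the table, the 250 upstream bases held CACCC on either strand in 52% of them, TGACG in 17.8% and TGANTCA in 6.75%. The SRF-binding CArG box (CC, 6 bases of A or T, GG; 1.47% of all promoters), the ETS motifs GGAAGT (19.7%) and CCGGAAG (6.91%), the full element TGACGTCA (1.55%) and the EGR motif GCGTGGGCG (0.536%) were found in none of the 6 members' windows. The motif GGGTGGGG (9.06%) was found in that of Klf3 only, where it overlaps 1 of 5 matches to CACCC. A match is a run of letters and not a measured binding site, and its absence says only that those letters are not in this window.

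Libraries held between 1552022 and 13004556 counts. The most abundant genes took 51.1 to 79.9% of the counts, with 52.5 to 71.3% at 0h and 66.2 to 79.9% at 4h. Outside these genes a library held 525094 to 6237654 counts, and at 4h 525094 to 1456849. Each of the 4 libraries of 4h, at 1552022 to 6658950 counts, was smaller than every other library, and its mitochondrially encoded share, 7.21 to 12.4%, was above the 2.67 to 6.98% of the others. A floor of 3 counts corresponded to 0.161 CPM in the deepest library and to 1.83 CPM in the shallowest, where CPM is the count relative to a library size scaled by the trimmed mean of M values (TMM). The TMM factors ran from 0.896 to 1.49 at 0h and from 0.609 to 1.06 at 4h, which span the range of all libraries. Scaling by total counts in place of TMM moved the median gene by -0.18 in 2h against 0h, -0.73 in 4h against 0h, -0.57 in 4h against 2h, 0.45 in rev against 4h and -0.30 in rev against 0h (log2), so every change below is relative to the bulk of the genes. The part of depth and of the mitochondrial share in the values at 4h was not tested. The EpiLC label was checked against 11 epiblast and formative markers, which summed to 1673 to 1951 CPM at 0h, 1593 to 1871 CPM at 2h, 1170 to 1279 CPM at 4h and 1408 to 1564 CPM at rev. These sums rest mainly on Dnmt3b and Dnmt3a, which reached 1061 and 403 CPM, while Fgf5 and Otx2 reached 28.9 and 35.8 CPM. Marker lists of 7 or 8 genes each for primitive endoderm, mesendoderm, trophectoderm and fibroblasts summed to at most 10.5, 13.2, 23.5 and 17.4 CPM in any library, and the fibroblast markers Postn and S100a4 had no count. Trophectoderm markers summed to 10.9 to 23.5 CPM at 4h against 4.72 to 6.80 CPM at 0h. The part of other cell types in the Klf values was not tested.

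Klf10, a TGF-beta-inducible repressor (chr15:38291463-38300706, minus strand, GRCm38), had the largest rise of the 9 members after 2 h of 4OHT. At 0h its level was 16.8 CPM in clone 4 and 18.6 and 20.0 CPM in clone 8. After 2 h it stood at 162 and 167 CPM in clone 4 and at 85.6 and 75.2 CPM in clone 8. The groups did not overlap, and the clone 4 libraries of 2h were about 2 times as high as those of clone 8. The log2 fold change was 2.41 ± 0.279 (SE), a 5.32-fold rise, with an adjusted p of 0.000214 (edgeR's quasi-likelihood test, Benjamini-Hochberg over all 13451 genes, here and below). After 4 h Klf10 had fallen back to 81.9 and 84.4 CPM in clone 4 and to 26.6 and 26.8 CPM in clone 8. Within each clone every 4h library lay below every 2h library and above every 0h library. The fall from 2h to 4h was by 1.24 ± 0.239 on the log2 scale (adjusted p = 0.0014; 0.057 without the clone term), and 4h remained above 0h by 1.17 ± 0.275 (adjusted p = 0.00486; 0.0749 when only the 0h and 4h samples were fitted and 0.133 with scaling by total counts). After the MEK inhibitor Klf10 was at 74.8 and 78.2 CPM in clone 4 and at 41.9 and 47.7 CPM in clone 8. That was above 0h by 1.44 ± 0.269 (adjusted p = 0.00484; 0.0579 without the clone term), and the difference from 4h, 0.27 ± 0.238, did not pass the test (adjusted p = 0.437).

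Klf6, a zinc finger factor of wound and growth factor responses (chr13:5861482-5870394, plus strand), moved less. It stood at 16.8, 20.6 and 22.5 CPM at 0h, the first of these being clone 4. After 2 h it was at 38.1 and 38.9 CPM in clone 4 and at 41.2 and 34.8 CPM in clone 8. All 4 libraries of 2h lay above all 3 of 0h, by 0.90 ± 0.312 on the log2 scale, but the change did not pass the test in the fit of all groups (adjusted p = 0.118). When only the 0h and 2h samples were fitted, so that the spread of the 4h samples did not enter, the change was 0.96 with an adjusted p of 0.000633. Without the clone 4 library of 0h its adjusted p was 0.432, and under the other alternatives it ran up to 0.217. At 4h the clones separated: clone 4 was at 47.0 and 61.0 CPM and clone 8 at 20.7 and 23.4 CPM, the latter beside 20.6 and 22.5 CPM in its own 0h libraries. Over both clones the change from 0h to 4h was 0.85 ± 0.324 (adjusted p = 0.0553), and with either clone 8 library of 4h left out it passed the test (1.11, adjusted p = 0.00535, without replicate 1, and 1.05, adjusted p = 0.0216, without replicate 2). It was 0.55 (adjusted p = 0.0942) without the clone 4 replicate 2 library of 4h and 0.15 (adjusted p = 0.674) with scaling by total counts. Without the clone 4 library of 0h its adjusted p was 0.258. From 2h to 4h and from 4h to rev the changes averaged over the clones were -0.05 ± 0.287 and 0.04 ± 0.289, which hide the opposite courses of the clones given below. After the MEK inhibitor clone 4 was at 28.7 and 38.7 CPM and clone 8 at 42.3 and 42.1 CPM. The rev libraries were all above those of 0h, by 0.90 ± 0.311 (adjusted p = 0.0871; 4.23e-06 when only these groups were fitted and 0.357 without the clone 4 library of 0h).

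Klf2, a factor of the naive pluripotency network that is also known from endothelial cells (chr8:72319033-72321656, plus strand), was low at 0h, at 3.19, 5.68 and 4.48 CPM. After 2 h it was at 5.11, 4.78, 5.84 and 6.0 CPM, clone 4 first here and in the lists of 4 that follow, which was not distinguishable from 0h (0.43 ± 0.189 log2, adjusted p = 0.187). After 4 h it reached 21.4, 20.7, 50.5 and 41.1 CPM. The lowest 4h library was more than 3 times the highest library of 0h or 2h, and the clone 8 libraries were about 2 times as high as those of clone 4. The log2 fold change was 2.97 ± 0.2 against 0h (adjusted p = 5.91e-10) and 2.54 ± 0.178 against 2h (adjusted p = 7.9e-10). After the MEK inhibitor Klf2 was back at 4.83, 4.34, 9.45 and 6.64 CPM, lower than at 4h by 2.38 on the log2 scale (SE 0.176, adjusted p = 2.71e-09). Its remaining difference from 0h, 0.59 ± 0.188, had an adjusted p of 0.0445 and lost the call when any of 9 of the 15 libraries was left out.

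Klf5, a factor of the naive network and of the trophectoderm (chr14:99298691-99315036, plus strand), was likewise highest at 4h, but there its clone 4 libraries were the higher ones. It was at 4.59, 7.62 and 7.63 CPM at 0h and at 10.2, 11.1, 8.81 and 9.70 CPM at 2h, each 2h library above each 0h library (0.53 ± 0.344 log2, adjusted p = 0.411). After 4 h it was at 73.3, 85.9, 27.3 and 36.9 CPM, all above every other library, with both clone 4 libraries above both of clone 8. The log2 fold change was 2.97 ± 0.377 against 0h (adjusted p = 6.16e-05) and 2.44 ± 0.321 against 2h (adjusted p = 7.56e-05). After the MEK inhibitor it was at 9.74, 14.9, 15.5 and 12.7 CPM, lower than at 4h by 2.03 on the log2 scale (SE 0.319, adjusted p = 0.000437). These levels were still above all 3 of 0h, by 0.95 ± 0.345, which did not pass the test (adjusted p = 0.101).

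Klf4, the pluripotency factor used in reprogramming (chr4:55527143-55532466, minus strand), stayed between 1.00 and 4.16 CPM and passed no test in the fit of all groups. Its level was 1.24, 1.00 and 2.91 CPM at 0h, 3.52, 4.16, 2.09 and 3.16 CPM at 2h, 1.83, 2.47, 2.96 and 3.02 CPM at 4h, and 2.94, 3.51, 2.96 and 2.08 CPM at rev. The groups overlap, and the 4h libraries rest on 3 to 13 counts each, against 15 to 59 in the other libraries. The change from 0h to 2h was 0.96 ± 0.322 on the log2 scale (adjusted p = 0.079). Without the clone 4 library of 0h this change had an adjusted p of 0.464. Under the alternatives that left out no single library, its adjusted p ran up to 0.328. It passed with DESeq2 (adjusted p = 0.0425), with no filter (0.0118), with the most abundant and mitochondrial genes removed (0.0168) and with the earlier quasi-likelihood method (0.0276), and without the clone 8 replicate 2 library of 0h it was 1.5 (adjusted p = 0.0047). The change from 0h to 4h was 0.69 ± 0.367 (log2, adjusted p = 0.145), and with the same 0h library left out it was 1.20 (adjusted p = 0.00948). With scaling by total counts the same change was -0.02. A rise of Klf4 the size of those of Klf2 and Klf5 lies outside 2 SE of its estimate, while no change lies within 2 SE.

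**Figure D1:**
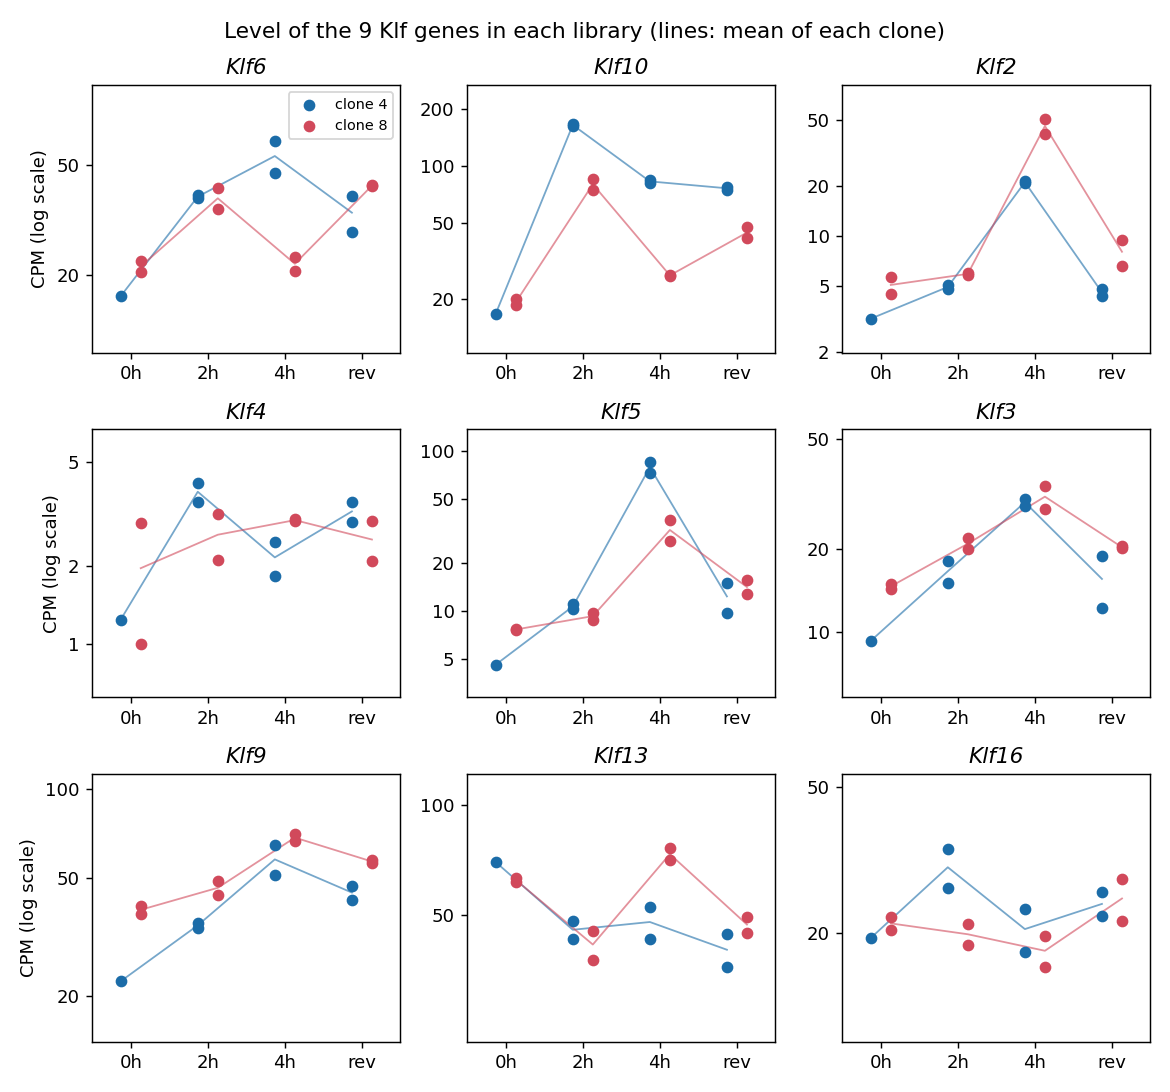
Level of each Klf gene in CPM (logarithmic axis, with its own range in each panel) in the 15 libraries by group, with 1 point for each library, clone 4 in blue, clone 8 in red, and lines through the mean of each clone. Klf10 peaks at 2h and Klf2 and Klf5 peak at 4h in both clones, while Klf6 at 4h is at 47.0 and 61.0 CPM in clone 4 and at 20.7 and 23.4 CPM in clone 8.

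The summed count of Klf6 and Klf10 divided by that of Klf2, Klf4 and Klf5 sets the 2 classes against each other within a library, so that it does not depend on the scaling between libraries. It is given as a description, with no test. At 0h the ratio was 3.73 in clone 4 and 2.74 and 2.83 in clone 8. At 2h it was 10.6 and 10.3 in clone 4 and 7.57 and 5.83 in clone 8. At 4h it was 1.34 and 1.33 in clone 4 and 0.586 and 0.619 in clone 8, below every other library in both clones. At rev it was 5.91 and 5.15 in clone 4 and 3.02 and 4.20 in clone 8. The 0h, 2h and 4h values did not overlap, and in each group every clone 4 library was above every clone 8 library.

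**Figure D2:**
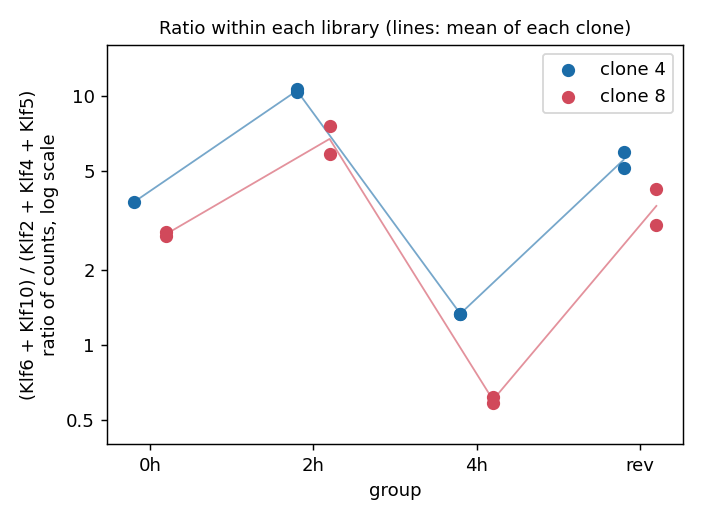
Ratio of the summed counts of Klf6 and Klf10 to those of Klf2, Klf4 and Klf5 in each library (logarithmic axis) by group, clone 4 in blue, clone 8 in red, lines through the mean of each clone. The 2h libraries lie between 5.83 and 10.6 and the 4h libraries between 0.586 and 1.34, with the clone 8 libraries lowest at each time point.

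The change over time was then compared between the clones, as the change in clone 8 minus that in clone 4, in a fit with 1 mean for each group in each clone. From 0h to 4h the change differed for 3 of 9 members, beside 3.87% of all genes tested. Klf6 changed by 1.69 ± 0.211 in clone 4 and 0.03 ± 0.164 in clone 8 (difference -1.66 ± 0.262, adjusted p = 0.000548). Klf10 changed by 2.31 ± 0.161 and 0.47 ± 0.120 (difference -1.84 ± 0.193, adjusted p = 6.9e-06). Klf5 changed by 4.12 ± 0.299 and 2.07 ± 0.208 (difference -2.05 ± 0.328, adjusted p = 0.000623). All 3 had the smaller change in clone 8. Klf2 changed by 2.72 ± 0.290 in clone 4 and 3.16 ± 0.221 in clone 8, a difference of 0.45 ± 0.335 with the other sign that did not pass the test (adjusted p = 0.566).

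After the MEK inhibitor the differences for Klf6, Klf10 and Klf5 had the opposite sign. From 4h to rev the change differed for 3 of 9 members, beside 2.8% of all genes. Klf6 fell by 0.69 (SE 0.161) in clone 4 and was higher by 0.94 ± 0.164 in clone 8 (difference 1.63 ± 0.230, adjusted p = 0.000309). For Klf10 the changes were -0.12 ± 0.117 and 0.75 ± 0.120 (difference 0.87 ± 0.168, adjusted p = 0.00546). For Klf5 they were -2.70 ± 0.208 and -1.19 ± 0.202 (difference 1.51 ± 0.282, adjusted p = 0.00393). From 0h to 2h only the change of Klf10 differed, 1 of 9 members beside 0.23% of all genes: it was 3.29 ± 0.170 in clone 4 and 2.06 ± 0.121 in clone 8 (difference -1.23 ± 0.188, adjusted p = 0.00716). From 2h to 4h the change differed for 3 of 9, beside 3.14% of all genes: Klf6 (0.49 and -0.79 in clones 4 and 8, difference -1.28, adjusted p = 0.00258), Klf5 (2.90 and 1.79, difference -1.12, adjusted p = 0.0334) and Klf13 (0.07 and 0.82, difference 0.76, adjusted p = 0.0459). From 0h to rev none of the 9 passed, beside 0.0818% of all genes, with Klf10 nearest (difference -0.97 ± 0.188, adjusted p = 0.053).

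Every clone difference that starts from 0h rests on the 1 clone 4 library of that group. With scaling by total counts none of these differences passed the test, and all 10 kept their sign. In 4h against 0h they were -1.49 for Klf6, -1.73 for Klf10 and -1.92 for Klf5, while that of Klf10 in 2h against 0h shrank to -0.55 (adjusted p = 0.581) and that of Klf13 in 4h against 2h to 0.12 (adjusted p = 0.933). With all libraries thinned to the smallest, the difference in 4h against 0h stayed past the threshold for Klf10 but not for Klf6 (-1.20, adjusted p = 0.14) or Klf5 (-1.46, adjusted p = 0.291). With the clone 8 replicate 2 library of 0h left out the Klf10 difference at 2h was -1.16 (adjusted p = 0.0759), and with that of rev left out its difference from 4h to rev was 0.77 (adjusted p = 0.0513). The call of Klf5 from 2h to 4h was lost when any of 7 libraries was left out, and that of Klf13 when any of 11 was.

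**Figure D3:**
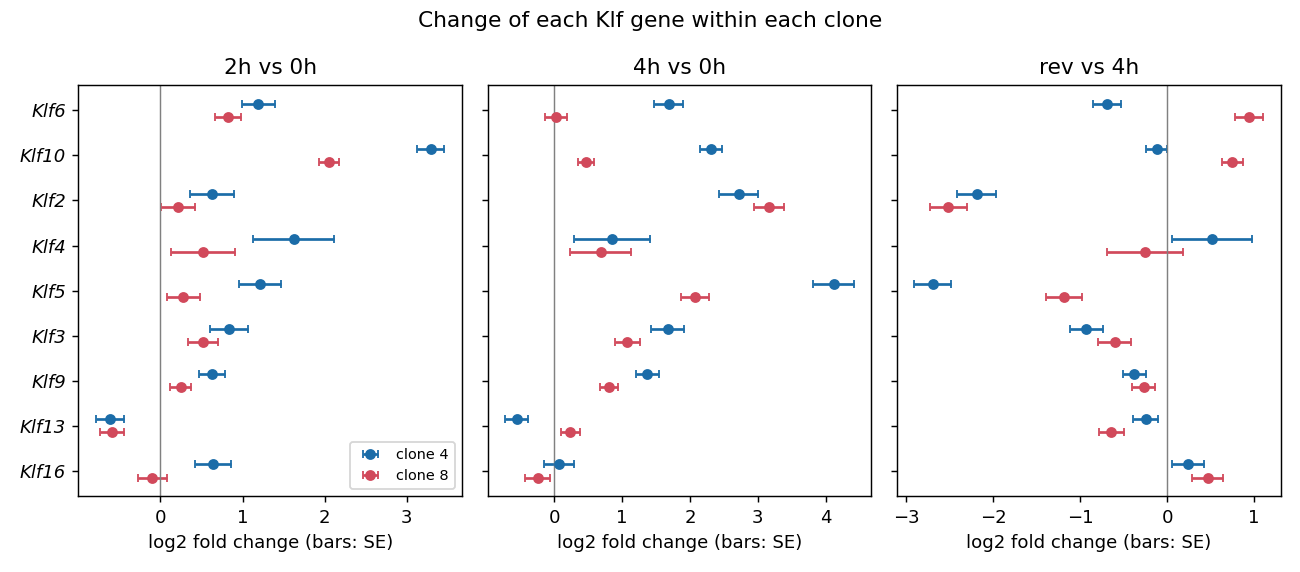
Log2 fold change of each of the 9 Klf genes within clone 4 (blue) and clone 8 (red), bars of 1 SE, for 2h against 0h, 4h against 0h and rev against 4h. For Klf6 in rev against 4h the clones lie on opposite sides of 0, at -0.69 and 0.94, while for Klf2 in 4h against 0h they lie at 2.72 and 3.16.

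The 4 members outside both classes follow. Klf3, a CtBP-dependent repressor (chr5:64803388-64832901, plus strand), was at 9.29, 14.4 and 14.9 CPM at 0h, 15.1, 18.1, 21.9 and 19.9 CPM at 2h, 28.7, 30.4, 28.0 and 33.9 CPM at 4h, and 12.3, 18.9, 20.2 and 20.4 CPM at rev. The 3 groups 0h, 2h and 4h did not overlap. It rose by 0.62 ± 0.151 at 2h (adjusted p = 0.0142) and by 1.32 ± 0.156 at 4h (adjusted p = 1.43e-06), and at rev it was lower than at 4h by 0.77 (SE 0.140, adjusted p = 0.000253). The call at 2h was lost with scaling by total counts (0.44, adjusted p = 0.661), after thinning (adjusted p = 0.244) and without the clone term (adjusted p = 0.127). It was also lost without the clone 4 library of 0h (0.48, adjusted p = 0.179) and without the clone 8 replicate 1 library of 2h (0.59, adjusted p = 0.0517). Of the 9 members only Klf3 shares exon bases with another gene, 404 bases with Gm20033 on the opposite strand, and how the counting treated strand is not given in the sources used here.

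Klf9 (chr19:23141226-23168134, plus strand) was at 22.5, 40.3 and 38.0 CPM at 0h, 34.0, 35.4, 49.1 and 43.9 CPM at 2h, 51.3, 64.7, 66.9 and 70.5 CPM at 4h, and 42.4, 47.2, 57.7 and 56.4 CPM at rev. The 4h and rev libraries all lay above those of 0h. It rose by 1.02 ± 0.118 at 4h (adjusted p = 1.12e-06) and remained above 0h at rev by 0.69 ± 0.116 (adjusted p = 0.000415), while its step from 4h to rev was small (-0.32 ± 0.106, adjusted p = 0.024). With scaling by total counts that step turned to 0.08 (adjusted p = 0.835) and the difference of rev from 0h was 0.38 (adjusted p = 0.451). Under the same scaling the rises of Klf3 and Klf9 at 4h were 0.61 and 0.29 (adjusted p = 0.0854 and 0.39), beside a median gene at -0.73.

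Klf13 (chr7:63886351-63938915, minus strand) was the only member to fall at 2h. It was at 69.8, 63.1 and 61.5 CPM at 0h, at 48.0, 42.9, 37.6 and 45.2 CPM at 2h, at 52.5, 43.0, 70.6 and 76.1 CPM at 4h, and at 44.3, 35.8, 49.3 and 44.6 CPM at rev. All 2h and rev libraries were below all 0h libraries, and at 4h the clones parted, with clone 4 low and clone 8 high. The change was -0.55 ± 0.143 at 2h (adjusted p = 0.0215) and -0.56 ± 0.143 at rev (adjusted p = 0.014), both against 0h, and without the clone 4 library of 0h they were -0.39 (adjusted p = 0.276) and -0.41 (adjusted p = 0.19). The 4h level was above 2h by 0.46 ± 0.135 (adjusted p = 0.00996) and above rev (rev against 4h -0.47 ± 0.135, adjusted p = 0.0115), values that became -0.04 and -0.08 with scaling by total counts. The former was 0.35 (adjusted p = 0.0559) without the clone 8 replicate 2 library of 4h. The change from 0h to 4h was -0.09 ± 0.144 (adjusted p = 0.644), and -0.81 (adjusted p = 0.0109) with scaling by total counts. Klf16 (chr10:80567124-80577321, minus strand) ranged from 16.2 to 33.8 CPM over the 15 libraries and passed none of the 5 group tests, with changes between -0.37 (4h against 2h, adjusted p = 0.0546) and 0.36 (rev against 4h, adjusted p = 0.0777). With scaling by total counts it passed as lower at 4h than at 0h (-0.86, adjusted p = 0.0122) and at 2h (-0.87, adjusted p = 0.00879) and as higher at rev than at 4h (0.74, adjusted p = 0.0416).

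Counted over the 9 members, 2 rose (Klf10 and Klf3) and 1 fell (Klf13) from 0h to 2h, where 3.98% of all genes rose and 2.46% fell. From 0h to 4h, 5 rose (Klf2, Klf5, Klf3, Klf9 and Klf10) and none fell, beside 20.5% and 18.9% of all genes. From 2h to 4h, 5 rose (Klf2, Klf5, Klf3, Klf9 and Klf13) and Klf10 fell, beside 19.7% and 19.2%. From 4h to rev none rose and 5 fell (Klf2, Klf5, Klf3, Klf13 and Klf9), beside 15.1% and 15.6%. At rev 4 were above 0h (Klf10, Klf9, Klf2 and Klf3) and Klf13 was below it, beside 6.49% and 4.66% of all genes. These counts come from the fit of both clones together and hide courses that differ between the clones, as given above. From 4h to rev Klf6 and Klf10 were higher in clone 8, while in clone 4 Klf6 was lower and Klf10 changed less. From 0h to 4h Klf6 was higher in clone 4, with its 1 library at 0h, and nearly unchanged in clone 8. With scaling by total counts the same counts were 1 higher (Klf10) and 0 lower at 2h, 2 higher (Klf2 and Klf5) and 2 lower (Klf13 and Klf16) from 0h to 4h, 2 higher (Klf2 and Klf5) and 2 lower (Klf10 and Klf16) from 2h to 4h, 1 higher (Klf16) and 2 lower (Klf2 and Klf5) from 4h to rev, and 1 higher (Klf10) and 1 lower (Klf13) from 0h to rev. With TMM scaling the median change over the 9 members was 0.53, 1.02, 0.46, -0.32 and 0.69 in that order, beside 0.01, 0.03, -0.01, 0.02 and 0.02 over all genes tested. Averaged over the groups, Klf2 (0.72 ± 0.128, adjusted p = 0.000342), Klf9 (0.42 ± 0.0789, adjusted p = 0.000639) and Klf3 (0.33 ± 0.103, adjusted p = 0.0261) were higher in clone 8 and Klf10 was lower (-0.92 ± 0.180, adjusted p = 0.00375), 3 and 1 of 9 members beside 10.4% and 8.11% of all genes.

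Levels can be compared between genes only per length, so CPM was divided by the summed exon length of each gene and expressed as a share of the 17 Klf genes. At 0h Klf13 had the largest share, 20.1% ± 3.67 (SD, n = 3), followed by Klf16 at 17.8% ± 1.21 and Klf9 at 15.8% ± 3.15, neighbours that do not differ beyond their spread. Klf6 and Klf10 were at 10.5% ± 0.630 and 10.2% ± 0.512, and Klf2, Klf5 and Klf4 at 5.49% ± 1.07, 2.89% ± 0.50 and 1.29% ± 0.71. At 2h Klf10 made up 39.0% ± 9.65 (SD, n = 4), from 29.4 to 48.4%. At 4h Klf2 made up 21.3% ± 10.4, from 11.9 to 32.9%, and Klf5 12.1% ± 5.45, from 6.31 to 17.5%, while Klf10 was back at 14.8% ± 8.12. The SDs at 4h are wide because the clones differ, and there the order of Klf2, Klf9, Klf10, Klf5 and Klf6 is not resolved by the spread over libraries. At rev Klf10 was at 23.9% ± 7.75, Klf9 at 17.3% ± 2.10 and Klf2 at 5.55% ± 1.85.

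**Figure D4:**
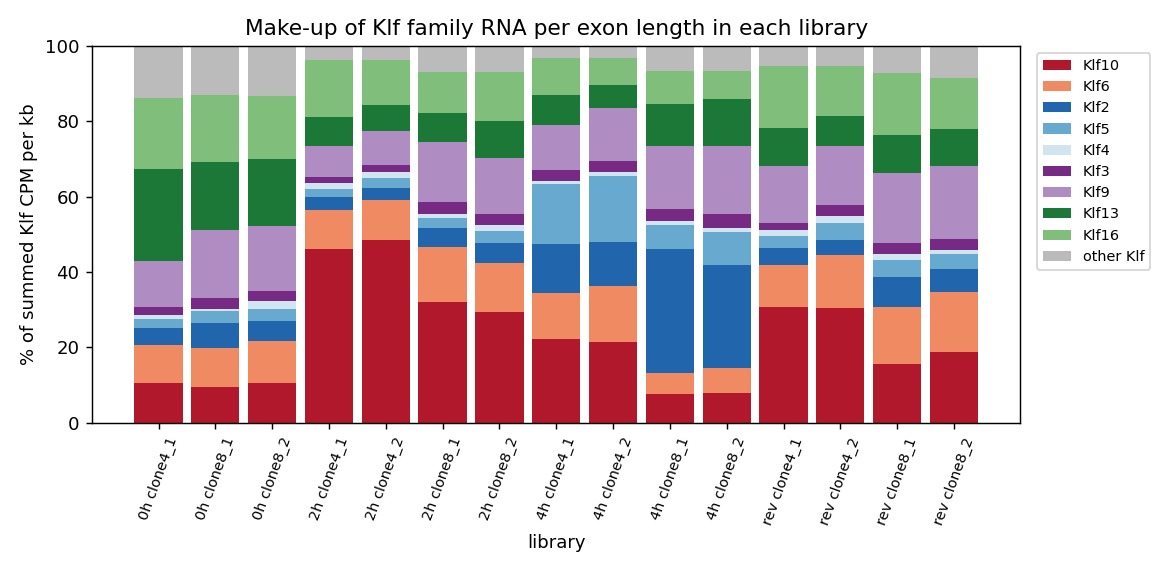
Share of each Klf gene in the summed Klf CPM per kb of exon in each of the 15 libraries, in percent, with the 8 Klf genes not followed here pooled in grey. Klf10 is widest at 2h (29.4 to 48.4%) and Klf2 is widest in the clone 8 libraries of 4h, where it reaches 32.9%.

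Over the 15 libraries, the log2 levels of Klf6 and Klf10 had a Pearson r of 0.78 and those of Klf2 and Klf5 an r of 0.82, whereas r between Klf10 and Klf2 was -0.15. Klf4 had an r of 0.57 with Klf10 and 0.34 with Klf6, beside 0.10 with Klf2 and 0.15 with Klf5. Between the classes, r was also 0.50 for Klf6 and Klf5, 0.05 for Klf6 and Klf2, and 0.21 for Klf10 and Klf5. Klf2 and Klf5 were also close to Klf3 (0.85 and 0.85), and Klf13 ran against Klf6 and Klf10 (-0.78 and -0.78). The libraries share groups and clones, so these values describe the course and are no test. Among 12291 genes with a mean of at least 1 CPM, the 3 with the highest r to Klf10 were Arc (0.98), Ocel1 (0.96) and Fosl1 (0.96), and those closest to Klf6 were Csn3 (0.92), Ptgs2 (0.92) and Ywhaz (0.90). Those closest to Klf2 were Morc1, Alpl and Slc2a3 (each 0.97), those closest to Klf5 were Pde8a, Capns1 and 4833439L19Rik (each 0.96), and none reached 0.80 with Klf4 (Lrrc8a 0.79, Cdc45 0.79, Zfp148 0.78).

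In the rest of the family, 15 of the 17 Klf genes and 7 of the 9 related Sp genes passed the filter on low counts, which Klf14, Klf17, Sp6 and Sp7 did not. Klf11, the closest relative of Klf10 and likewise TGF-beta-inducible, was lower in every other group than at 0h, where it stood at 8.64, 9.29 and 10.9 CPM. Its changes against 0h were -1.03 ± 0.248 at 2h (adjusted p = 0.0131), -0.90 ± 0.271 at 4h (adjusted p = 0.0112) and -1.19 ± 0.250 at rev (adjusted p = 0.00321). In clone 4 Klf11 went from 8.64 CPM in its 1 library at 0h to means of 3.21, 2.46 and 2.15 CPM at 2h, 4h and rev. In clone 8 the means were 10.1 CPM at 0h and 5.86, 7.79 and 6.54 CPM at 2h, 4h and rev, a smaller fall. Its clone 4 libraries at 4h rest on 4 and 10 counts. Klf12, a repressor, was lower at rev than at 0h (-0.89 ± 0.269, adjusted p = 0.0366) and than at 4h (-1.05 ± 0.290, adjusted p = 0.00854), and higher at 4h than at 2h (0.71 ± 0.280, adjusted p = 0.0498), with overlapping groups. At 4h Klf12 had only 2 and 10 counts in clone 4 and 18 and 14 in clone 8. The erythroid factor Klf1 was called lower at 4h than at 0h (adjusted p = 0.0351) on 9 to 22 counts a library at 0h against 0, 1, 3 and 1 at 4h, too few for a fold.

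Among the Sp genes, Sp9 stood apart. It had 4, 3 and 0 counts at 0h, 62 and 62 in clone 4 and 17 and 38 in clone 8 at 2h, 0 and 6 in clone 4 and 0 and 0 in clone 8 at 4h, and 104, 83, 14 and 22 at rev. It was called higher at 2h than at 0h (adjusted p = 1.13e-05), lower at 4h than at 2h (adjusted p = 8.6e-05) and higher at rev than at 4h (adjusted p = 3.5e-05). The 0h and 4h libraries are at or near the floor of 3 counts, and the 4h libraries are the shallowest, so no fold is given. Sp8 was higher at 4h than at 0h by 1.41 ± 0.337 (adjusted p = 0.00219) and at rev by 1.24 ± 0.302 (adjusted p = 0.0101). These values rest on few counts: 15, 27 and 12 at 0h and 5, 11, 16 and 9 at 4h. The widely expressed Sp1, Sp2 and Sp3 were higher at 4h than at 0h by 0.54, 0.37 and 0.50 (adjusted p = 0.00486, 0.0264 and 0.00646). Klf7, Klf8, Klf15, Sp4 and Sp5 passed none of the 5 group tests.

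The lists of related genes were counted beside the members. Of 18 immediate early genes, 13 rose and none fell from 0h to 2h (median 2.55), where 3.98% of all genes rose and 2.46% fell. From 2h to 4h 1 rose and 12 fell (median -1.71), beside 19.7% and 19.2%. The growth factor-responsive genes Fos, Egr1 and Arc rose by 5.61, 7.86 and 3.67 at 2h, while the members Klf10 and Klf6 changed by 2.41 and 0.90. From 4h to rev 2 of the 18 rose and 1 fell (median -0.23), beside 15.1% and 15.6%. That average hides opposite courses of the clones, with a median of -0.68 in clone 4 and 0.51 in clone 8. The change from 0h to 4h was smaller in clone 8 for 8 of the 18 and larger for none (median difference -1.48), beside 3.87% of all genes with a difference in either direction, and from 4h to rev the difference was in the other direction for 8 of 18 (median 1.35), beside 2.8%. Egr2 was the one gene of this list called in both 2h against 0h (4.45, adjusted p = 2.95e-07) and rev against 4h (1.05, adjusted p = 0.0274).

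Of 13 naive network partners of Klf2, Klf4 and Klf5, 12 rose and none fell from 0h to 4h (median 2.48), where 20.5% of all genes rose and 18.9% fell. The median was 1.30 in clone 4, with its 1 library at 0h, and 3.22 in clone 8. From 2h to 4h it was 1.20 in clone 4 and 2.79 in clone 8. In that step 8 of the 13 rose and 1 fell in clone 4, beside 12 and 0 in clone 8. From 4h to rev 13 of 13 fell (median -2.01), beside 15.6%. Within clone 4 the fall passed the test for 8 of them (median -0.99), and within clone 8 for 13 (median -2.37). From 0h to 2h only Tet2, a dioxygenase of 5-methylcytosine, rose (1.26, adjusted p = 0.000557). The nuclear receptors Nr5a2 and Esrrb rose by 4.19 and 3.57 at 4h. The change from 0h to 4h was larger in clone 8 for 6 of the 13 and smaller for none (median difference 1.63), beside 3.87% of all genes with a difference in either direction. The difference of Klf5 was -2.05. The lists hold genes whose course in these samples was known when they were drawn up, so their counts are no independent evidence.

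Of 15 cofactors and degradation factors of Klf proteins, none rose and 2 fell from 0h to 2h, where 3.98% of all genes rose and 2.46% fell, and 5 rose and 6 fell from 0h to 4h (median -0.25), where 20.5% rose and 18.9% fell. Sin3a, the corepressor bound by Klf9, Klf10, Klf13 and Klf16, was lower at 2h than at 0h (-0.40, adjusted p = 0.00597) and lower at rev than at 4h (-0.61, adjusted p = 6.92e-06), and higher at 4h than at 0h (0.30, adjusted p = 0.0104). Of 14 tested regulators known to act upstream of Klf genes, 2 rose and 2 fell at 2h and 4 rose and 1 fell at 4h, beside the same shares. Among them Mapk7, the ERK5 kinase that acts upstream of Klf2 and Klf4, was lower at 2h than at 0h (-0.44, adjusted p = 0.039) and at rev than at 4h (-0.33, adjusted p = 0.0453), and the TGF-beta effector Smad3 likewise (-1.05, adjusted p = 0.000164, and -1.34, adjusted p = 1.59e-06). The ETS factor Elk4 was higher in both comparisons (0.63, adjusted p = 0.0033, and 0.33, adjusted p = 0.0427).

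Among the epiblast and formative markers, Sox2 and Foxd3 rose at 2h (1.43 and 1.76) and fell from 4h to rev (-1.09 and -1.26), Pou3f1 rose in both (0.50 and 0.55) and Utf1 fell in both (-0.55 and -0.77). The mesendoderm gene Gsc rose in both (2.89 and 3.02), but it reached at most 2.58 CPM, with 151 counts over all libraries, so these folds rest on few counts. Of the 11 epiblast and formative markers 5 rose and 5 fell from 0h to 4h, where 20.5% of all genes rose and 18.9% fell. Of the trophectoderm markers, which Klf5 is known to accompany in the embryo, 3 of the 5 tested rose from 0h to 4h and none fell, beside the same shares. Within clone 8 alone 3 rose and 1 fell. The 3 risers over both clones were Gata3, Tfap2c and Eomes, which reached only 4.69, 5.01 and 9.38 CPM. Gata3 had 68 counts over all libraries, and Eomes is also in the mesendoderm list. Cdx2 and Elf5 did not pass the filter on low counts. Of the fibroblast markers, 2 of the 3 tested fell from 0h to 4h and 3 of 3 rose from 4h to rev, beside 15.1% of all genes, and their list summed to 4.28 to 10.7 CPM at 0h, 0.377 to 6.11 CPM at 4h and 7.99 to 17.4 CPM at rev. The 2 that fell, Thy1 and Dcn, reached at most 5.78 and 2.37 CPM in any library. The floor of 3 counts is 0.683 to 1.83 CPM at 4h, so these genes are near it there.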

How the data were processed

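The deposited table holds raw counts of reads per Ensembl gene in 15 samples, which the authors did not normalize as far as the values show: they are whole numbers with different totals. Per the labels' protocols, ribosomal RNA was removed from 1 µg of total RNA and NEBNext Ultra II libraries were made. The submitters' processing notes name STAR 2.5.3a, bcl2fastq 2.19.1 and the build mm10. The counting tool, annotation and strand setting are not given in the sources used here. Symbols and positions came from GENCODE M21 (GRCm38, the same build), which held 52403 of the 52636 identifiers.

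Genes were filtered with filterByExpr (minimum count 10, minimum total 15) and scaled by TMM in edgeR 4.0.16 (R 4.3.3), and 1 quasi-likelihood model with group and clone was fitted to all 15 samples. A second model had 1 mean for each group in each clone. Adjusted p-values are Benjamini-Hochberg over all 13451 tested genes with a threshold of 0.05, called "passing the test" in the text, and SE is the log2 fold change divided by the root of F. The model was tested on simulated data. Samples were grouped by their titles. Floors of 3 counts cover counting error only.

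The alternatives were DESeq2 1.42.0 (size factors and test), total count scaling, no filter, removal of the 20 most abundant and the mitochondrial genes, thinning, no clone term, a replicate block, fits of only the groups compared, an earlier quasi-likelihood method and leaving out each library. The members and all gene lists were chosen with earlier results of these data known. Besides the 9 members, the text names other Klf and Sp genes that passed a group test, list genes that passed in both 2h against 0h and rev against 4h, and the 3 genes most like each of 5 members by Pearson r. Fos, Egr1, Arc, Nr5a2 and Esrrb were named as examples after their values were seen.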

Additional observations from a re-analysis of the deposited data

Results flagged for a closer look

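In 10 cases the change of a Klf gene over time differed between the clones by the test of the difference itself (clone 8 change minus clone 4 change, edgeR's quasi-likelihood test, adjusted over 13451 genes). Klf6 differed by -1.66 in 4h against 0h, by -1.28 in 4h against 2h and by 1.63 in rev against 4h. Klf10 differed by -1.23 in 2h against 0h, by -1.84 in 4h against 0h and by 0.87 in rev against 4h. Klf5 differed by -2.05 in 4h against 0h, by -1.12 in 4h against 2h and by 1.51 in rev against 4h. Klf13 differed by 0.76 in 4h against 2h. All of these except that of Klf10 in 2h against 0h share the 4h libraries, so they are not separate pieces of evidence. In 27 member and group combinations with 4 samples, no sample stood far from the others by Dixon's criterion. Each of these groups holds 2 libraries of each clone, and the criterion does not flag 2 libraries that lie apart together. The group 0h, with 3 samples, was not checked. There Klf4 was at 2.91 CPM in clone 8 replicate 2, beside 1.24 and 1.00 CPM.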

How the results depend on the processing

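The rises of Klf2 and Klf5 from 0h and from 2h to 4h, their falls from 4h to rev, the rise of Klf10 at 2h, and the clone differences of Klf2 and Klf10 averaged over groups kept their direction and their call under all alternatives run. Depth limits Klf4 most, with 3 to 13 counts at 4h.

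With total count scaling, genes called numbered 266 in 2h against 0h (867 in the fit reported), 759 in rev against 0h (1500) and 761 between the clones (2492), and members called numbered 1 (3), 2 (5) and 2 (4), with 3 (5) in rev against 4h. For clone differences this scaling called 2 genes in 2h against 0h (31), 91 in 4h against 0h (520), 147 in 4h against 2h (422), 44 in rev against 4h (377) and 1 in rev against 0h (11), and 0 members in each. The share of called genes that were higher was 7.11% with this scaling in 4h against 0h (52%), 9.09% in 4h against 2h (50.6%), 88% in rev against 4h (49.2%) and 31.9% in rev against 0h (58.2%). For clone differences it was 50%, 14.3%, 0.68%, 84.1% and 0% (16.1%, 33.8%, 36.3%, 68.2% and 27.3%).

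With all libraries thinned to the smallest, 8704 genes were tested and 252, 2535, 2469, 1845 and 456 were called in 2h against 0h, 4h against 0h, 4h against 2h, rev against 4h and rev against 0h (867, 5300, 5237, 4140 and 1500), and 1089 between the clones. Members called were 3 in rev against 0h and 2 between the clones. Clone differences numbered 3, 159, 111, 130 and 0 in the same 5 comparisons, with 0, 1 and 0 members in the first 3.

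With the mitochondrial genes and the 20 most abundant genes removed, 1494 genes and 5 members were called in 2h against 0h, 2289 genes in rev against 0h, and clone differences of 36 genes and 1 member in rev against 0h. Without the filter 1305 genes were called in 2h against 0h, and clone differences numbered 56 in 2h against 0h and 65 in rev against 0h, with 1 member in the latter. Without the clone term 427 genes were called in 2h against 0h and 793 in rev against 0h, with 1 member in each. With only the groups compared 2934 genes were called in rev against 0h. DESeq2 called 6 members in 2h against 0h, and clone differences of 245 genes in 4h against 2h, 215 in rev against 4h and 43 in rev against 0h, with 1 member in the last. The earlier quasi-likelihood method, chosen after seeing the data, called 1327 genes and 5 members in 2h against 0h, and clone differences of 33 genes and 1 member in rev against 0h.

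Leaving out 1 library at a time gave 308 to 1077 genes and 1 to 5 members in 2h against 0h, and 511 to 1716 genes and 2 to 6 members in rev against 0h. Clone differences ranged from 2 to 30 genes and 0 to 1 members in 2h against 0h, 311 to 601 genes in 4h against 0h, 278 to 424 genes and 1 to 3 members in 4h against 2h, 195 to 427 genes in rev against 4h, and 0 to 26 genes and 0 to 1 members in rev against 0h.

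Signs turned in these cases, none of which passed the test. With total count scaling Klf4 in 4h against 0h was -0.021, Klf13 in 4h against 2h -0.045, Klf9 in rev against 4h 0.085 and Klf16 in rev against 0h -0.12, the last being -0.15 after thinning. Klf13 in 4h against 0h was 0.049 without the clone 4 library of 0h and 0.013 without clone 4 replicate 2 of 4h, in a range from -0.22 to 0.049. Klf6 in 4h against 2h was 0.026 without clone 8 replicate 1 of 2h, and 0.19 and 0.14 without clone 8 replicates 1 and 2 of 4h, in a range from -0.36 to 0.19. Klf6 in rev against 4h was -0.21 and -0.16 without clone 8 replicates 1 and 2 of 4h, and -0.051 and -0.037 without those of rev, in a range from -0.21 to 0.34. Klf4 in rev against 4h was -9e-04 without clone 4 replicate 1 of 4h, in a range up to 0.24, and between the clones it was 0.0067 without clone 8 replicate 1 of 2h, in a range from -0.28. The cause of these changes was not tested.

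Without the clone term Klf9 in rev against 0h had an adjusted p of 0.0626, and with total count scaling the rises of Klf3 and Klf9 from 2h to 4h were 0.16 and 0.12 and the fall of Klf3 from 4h to rev was -0.38, none past the threshold. Calls lost without 1 library, beyond those in the report, were Klf9 in rev against 4h (3 libraries), Klf3 in rev against 0h (4 libraries) and between the clones (5 libraries), and Klf13 in rev against 4h without clone 8 replicate 2 of 4h (-0.37, adjusted p = 0.0611) or clone 4 replicate 2 of rev (-0.38, adjusted p = 0.06), and in rev against 0h without clone 4 replicate 2 of rev (-0.50, adjusted p = 0.0555).

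Samples with the same label in different groups deviated together with a median r of 0.20 over 21 pairs, 19 of them over 0.1 (lowest 0.05), beside 0.19 for samples of 1 clone with different labels, and 8 of 15 libraries correlated better with their own label. The replicate block gave 653 genes and 3 members in 2h against 0h, 4902 and 5 in 4h against 0h, 5182 and 7 in 4h against 2h, 4130 and 5 in rev against 4h, and 1104 and 5 in rev against 0h, the added member being Klf16 in 4h against 2h (-0.38, adjusted p = 0.0461).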
